A study of Mus musculus with 4 samples.

Results

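The 10 genes described here encode repressors of 2-cell-stage and germline genes, taken from the deposited table by their gene symbols. They were the CAF-1 subunits Chaf1a and Chaf1b, the pair Trim28 and Setdb1, the demethylase gene Kdm1a, the G9a/GLP genes Ehmt2 and Ehmt1, and the PRC1.6 genes Pcgf6, Mga and L3mbtl2. Each symbol occurred once among the 55401 genes of the table, and all 10 were among the 15580 genes that passed the filter on low counts. RNA-seq was performed on E14 mouse embryonic stem cells (mESCs), an established line, with 2 WT libraries and 2 Haspin-KO libraries. Both groups were grown in serum with LIF and 2i and the labels name no further treatment. The Haspin-KO lines were made from these cells with CRISPR/Cas9, a pair of gRNAs against Haspin, a mitotic histone H3 kinase, and puromycin selection, and single clones that lacked the phosphorylation it makes were picked. The labels do not say which clone each library came from, nor that libraries came from separate cultures, so the tests measure the spread between these libraries only. The question addressed was whether the mRNA of these repressors was lower in Haspin-KO mESCs, in which Zscan4 and Xlr genes were higher.

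A small share of mESCs in culture passes through a state resembling the embryo at the 2-cell stage, marked by Zscan4 genes and by transcripts of the endogenous retrovirus MERVL. CAF-1 places newly made histones on replicating DNA, Trim28 is brought to retroviral elements by zinc finger proteins and recruits Setdb1, which trimethylates histone H3 lysine 9, and Kdm1a removes methyl groups from histone H3 lysine 4. G9a (Ehmt2) and GLP (Ehmt1) dimethylate histone H3 lysine 9. PRC1.6 is a variant Polycomb complex in which Mga with Max binds the E-box, E2f6 binds E2F sites, and Pcgf6 and L3mbtl2 are core subunits, and its loss is known to raise germline and meiotic genes in mESCs.

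The E-box, CACGTG, is the letter sequence through which Mga and Max contact DNA, and it was searched in the RefSeq promoters of GRCm38.p6, which cover 250 bases before to 50 bases after a start site. It reads the same on both strands and was found in 7.15% of 32851 promoters. Promoters of 23 of the 24 germline genes set beside the repressors were in the RefSeq table, and 13 of these 23 genes held an E-box, in 57.1% of their 28 promoters. The list was chosen as PRC1.6 targets, so its share of E-boxes is not independent evidence. The E-box was in 0 of the 4 Zscan4 promoters matched, of 6 genes sought, and in 0 of the 9 Xlr3, Xlr4 and Xlr5 promoters. The following windows of 30 bases are those of the germline genes with an E-box whose p was smallest in the comparison, read along the gene with the E-box in capitals, and are shown since Mga and Max bind these letters.
Ddx4, chr13:112652322-112652351, minus strand: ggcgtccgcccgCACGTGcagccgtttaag
Sycp1, chr3:102936177-102936206, minus strand: tagagaacccggCACGTGggaagggaaatc
Mael, chr1:166238950-166238979, minus strand: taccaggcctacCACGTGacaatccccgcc
Taf7l, chrX:134476522-134476551, minus strand: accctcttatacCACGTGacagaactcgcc
In Ddx4 and Taf7l the E-box began 29 and 49 bases before the start site, and in Sycp1 and Mael it began 94 and 223 bases before it. A match is a description of these letters and not a measured binding site.

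**Figure D1:**
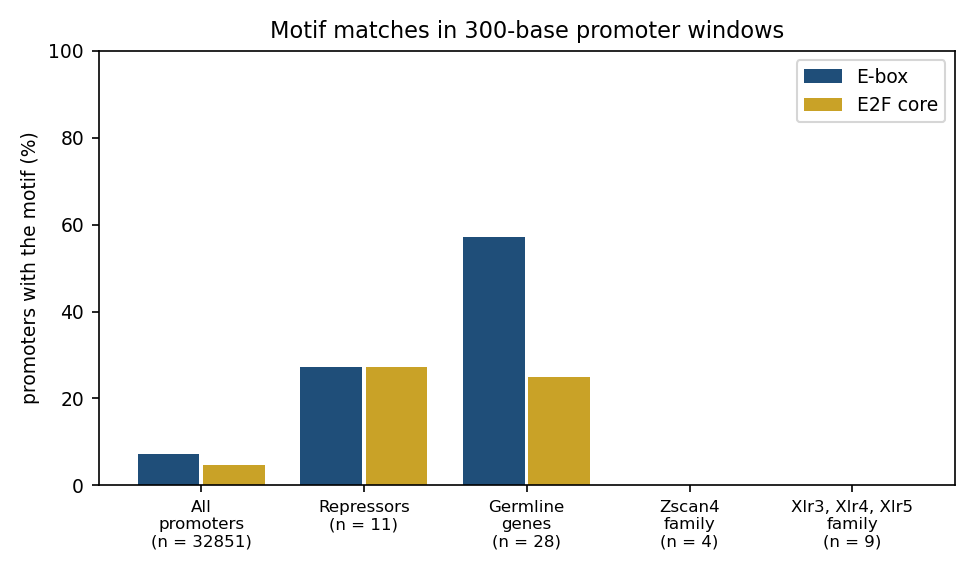
Share of RefSeq promoter windows (%, bars) that held an E-box or an E2F core, for all promoters, the 10 repressor genes, the germline list, the Zscan4 family and the Xlr3, Xlr4 and Xlr5 family, with the number of windows under each. The germline list reached 57.1% for the E-box against 7.15% of all promoters, and the Zscan4 and Xlr families had no bar for either motif.

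The repressors' own promoters were also searched, with the E2F core GCGGGAA on either strand added since E2f6 reads such sites. All 10 genes were matched, with 11 promoters. The E2F core was in the promoters of Chaf1a, Chaf1b and Trim28, or 27.3% of the 11, against 4.60% of all promoters. The E-box was in promoters of Chaf1a and Ehmt2, also 27.3% of the 11, against 7.15% of all promoters. Each share rests on 3 promoters. The windows of the E2F core nearest upstream of the start site in the 3 genes, with the core or its reverse complement in capitals, were these.
Chaf1a, chr17:56040358-56040387, plus strand: ggttgccgcggTTCCCGCcaaatacgagcg
Chaf1b, chr16:93883663-93883692, plus strand: tcctccgaggcGCGGGAAtgggattcccag
Trim28, chr7:13023963-13023992, plus strand: ctccacgttcgGCGGGAActtcctggcaaa
The GC content of the 11 repressor promoters ran from 55.3% to 82.7% with a median of 63.0%, against a median of 52.7% over all promoters. The ratio of observed to expected CpG had a median of 0.809 in the repressors' promoters and 0.384 over all promoters, and it was 0.181 in the Zscan4 promoters. The repressors lay on the CpG-rich side of all promoters and the Zscan4 genes on the poor side. This was not particular to the repressors. The median was 0.765 for the germline genes, 0.975 for further repressors of the 2-cell state, and 0.664 to 1.12 for other genes of the 5 complexes. The Xlr promoters, at 0.361, were close to all promoters.

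The library totals were 21834847 and 17452307 counts in WT and 14207828 and 14436750 in Haspin-KO. Haspin itself had 14.3 and 12.6 FPKM in WT and 3.73 and 5.15 FPKM in Haspin-KO, a log2 fold change of -1.60 (standard error, SE, 0.16, adjusted p = 0.00154, edgeR). All 10 markers of mESCs were detected, at a summed 6700 and 6983 CPM in WT and 6300 and 6505 CPM in Haspin-KO. Of 10 fibroblast markers, chosen since the cells were passaged on mouse embryonic fibroblasts, 7 could be tested and 5 were lower in Haspin-KO at an adjusted p under 0.05, and Lum, a defining one, was at 0 counts in every library. Their summed level was 110.6 and 84.9 CPM in WT and 15.0 and 10.9 CPM in Haspin-KO, and its part in the values below was not tested. When these markers and all collagen genes were left out of the fit, the log2 fold changes of the repressors stayed within 0.01 of those given. That fit could change only the scaling and the estimate of spread. Any fibroblast RNA in the repressors' own counts stayed in, so the fit cannot measure its part.

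The mRNA of the 10 repressors was close in WT and Haspin-KO mESCs. In the quasi-likelihood test of edgeR, with p adjusted by Benjamini-Hochberg over all genes, 0 of 10 passed an adjusted p of 0.05, where 2.50% of all genes tested passed (0.988% higher and 1.51% lower). With a fold change over 2 as well, 0.828% of all genes passed, 0.327% higher and 0.501% lower, and again 0 of 10 repressors. At an unadjusted p under 0.05, edgeR, DESeq2 and limma each gave 0 of 10, where 20.8%, 6.87% and 15.8% (17.1% with a pseudocount of 1) of the genes each tool tested passed. The log2 fold changes ran from -0.13 for Chaf1b to 0.21 for Mga, with 4 above zero and 6 below, and a median of -0.04 against -0.0039 for all genes tested. The median absolute change was 0.078 against 0.18 for all genes tested, and 9 of the 10 were smaller than that value, Mga being the exception. All 10 lay above the median level of all genes tested, and this comparison was not matched for level. The smaller change therefore cannot be read as a trait of the repressors, and the part of level in it was not tested. The lowest end of the 10 intervals (95%) was a fall of 21.2%, in L3mbtl2. With all 4 libraries, a loss of 25% or more thus lay outside each gene's own interval. The limit of 25% was not fixed beforehand, and the intervals do not hold jointly for the 10 genes. This limit did not hold for Chaf1a, Chaf1b and L3mbtl2 with fewer libraries. Without Haspin-KO replicate 2 their intervals reached -26.8%, -26.7% and -28.4%, and without WT replicate 1 they reached -25.4%, -26.6% and -27.9%. In CPM scaled by TMM, the Haspin-KO libraries were both above the WT libraries in Kdm1a, Ehmt1 and Pcgf6, 3 of 10 where 25.3% of all genes tested were so placed, and below them in 0 of 10 against 26.9%. In FPKM, which is scaled by the library total, the same 3 were above (25.8% of all genes tested) and 2 of 10, Chaf1b and Setdb1, were below (26.2%). RNA was taken from whole cultures, so fewer cells of a type and less RNA per cell cannot be told apart. Protein and enzyme activity were not measured here.

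**Figure D2:**
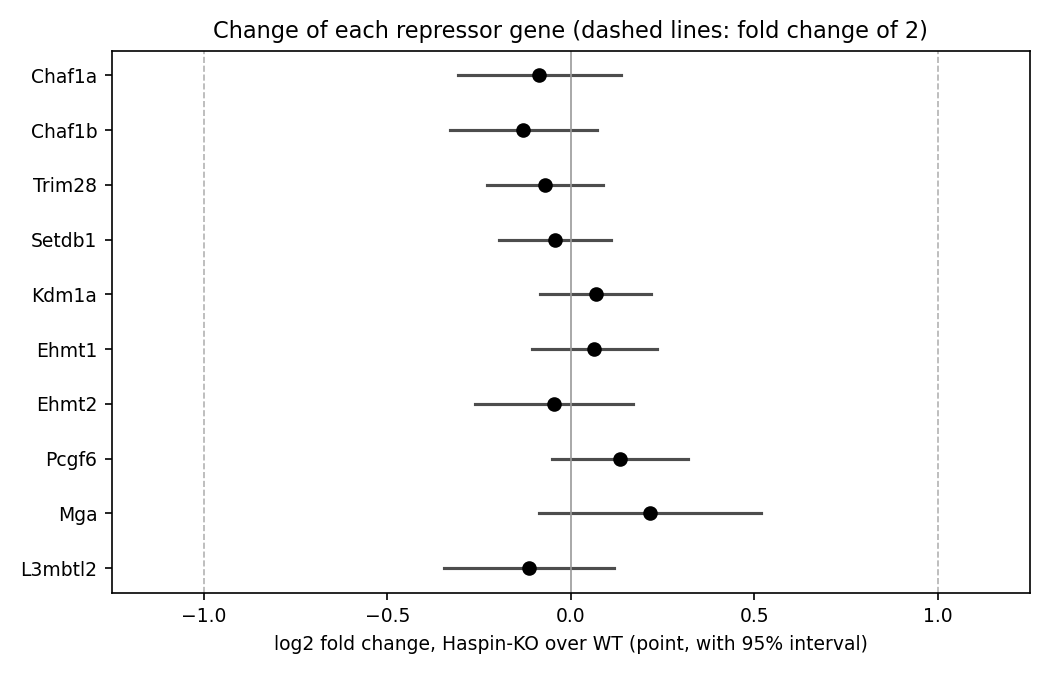
Log2 fold change of each repressor gene in Haspin-KO over WT (points) with its 95% interval from edgeR's quasi-likelihood fit (lines, 2 libraries a group). The intervals of all 10 genes span 0 and end well short of the dashed lines at a fold change of 2, the lowest end being that of L3mbtl2 and the highest that of Mga.

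Of CAF-1, the large subunit gene Chaf1a (chr17:56040439-56072289 of mm10, plus strand) had 13.1 and 14.3 FPKM in the WT libraries and 12.0 and 13.9 FPKM in the Haspin-KO libraries. The groups overlapped, and replicate 1 was the lower library in each. Its log2 fold change was -0.09 (SE 0.098, 95% interval -0.31 to 0.14, adjusted p = 0.662). It was 0.03 without Haspin-KO replicate 1 and -0.01 without WT replicate 2, but -0.22 without Haspin-KO replicate 2 and -0.16 without WT replicate 1. Chaf1a shares 4648 bases, 52.5% of its exonic length, with exons of Ubxn6 on the opposite strand, which had 275 and 193 counts in WT and 192 and 173 in Haspin-KO. Whether strand was used in counting is not given in the sources used here, so reads from these bases cannot be assigned to either gene, and the level of Chaf1a is uncertain. Chaf1b (chr16:93883901-93906115, plus strand), the middle subunit, had 18.1 and 19.7 FPKM in WT and 16.6 and 17.9 FPKM in Haspin-KO. In FPKM both Haspin-KO libraries lay below both WT libraries, while in CPM Haspin-KO replicate 2 lay just above WT replicate 1 and the groups overlapped. The log2 fold change was -0.13 (SE 0.089, interval -0.33 to 0.07, adjusted p = 0.442), the largest fall among the 10 genes, and its interval reached from a fall of 20.4% to a rise of 5.04%. It was -0.20 without Haspin-KO replicate 2 or without WT replicate 1, and -0.06 without either of the other libraries. The ratio of Chaf1b to Chaf1a in FPKM was 1.38 in both WT libraries and 1.39 and 1.29 in the Haspin-KO libraries.

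Trim28 (chr7:12999114-13031035, plus strand), the scaffold for silencing retroviral elements, was the most abundant of the 10 genes, at 466.1 and 432.5 FPKM in WT and 420.0 and 437.4 FPKM in Haspin-KO. The second Haspin-KO library lay between the WT libraries. Its log2 fold change was -0.07 (SE 0.070, interval -0.23 to 0.09, adjusted p = 0.601). Setdb1 (chr3:95323525-95357202, minus strand), the methyltransferase it recruits, varied little, with 44.6 and 46.1 FPKM in WT and 44.0 and 44.3 FPKM in Haspin-KO, lower in both, though the groups overlapped in CPM. The log2 fold change of Setdb1 was -0.04 (SE 0.068, interval -0.19 to 0.11, adjusted p = 0.768), the smallest of the 10 in size. Setdb1 had at least 4287 counts in each library and Trim28 at least 24812, and the Trim28 to Setdb1 ratio in FPKM was 10.4 and 9.38 in WT and 9.54 and 9.87 in Haspin-KO.

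Kdm1a (chr4:136550540-136602723, minus strand), the demethylase of histone H3 lysine 4, had 54.0 and 52.0 FPKM in WT and 56.6 and 54.9 FPKM in Haspin-KO. Both Haspin-KO libraries were above both WT libraries by a narrow margin. The log2 fold change was 0.07 (SE 0.067, interval -0.08 to 0.22, adjusted p = 0.607), and the interval reached from -5.63% to 16.3%.

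Of the G9a/GLP pair, Ehmt1 (chr2:24789928-24919614, minus strand), which encodes GLP, had 13.2 and 13.0 FPKM in WT and 13.6 and 13.8 FPKM in Haspin-KO, again a narrow separation upwards. Its log2 fold change was 0.06 (SE 0.076, interval -0.11 to 0.23, adjusted p = 0.674). Ehmt2 (chr17:34898469-34914052, plus strand), which encodes G9a, had 28.02 and 23.5 FPKM in WT and 26.4 and 23.7 FPKM in Haspin-KO. The difference between the WT libraries was larger than that between the groups. Its log2 fold change was -0.05 (SE 0.096, interval -0.26 to 0.17, adjusted p = 0.824), and it was 0.01 without Haspin-KO replicate 2, 0.08 without WT replicate 1, -0.11 without Haspin-KO replicate 1 and -0.16 without WT replicate 2. Ehmt2 exceeded Ehmt1 per length in every library, by a ratio of 2.12 and 1.81 in WT and 1.95 and 1.71 in Haspin-KO.

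The PRC1.6 genes held the largest change of the 10 and did not move one way. Mga (chr2:119897228-119969581, plus strand), the subunit that binds DNA with Max, had 21.8 and 28.9 FPKM in WT and 26.7 and 32.1 FPKM in Haspin-KO. Replicate 2 was the higher library in each group, and the groups overlapped. The log2 fold change was 0.21 (SE 0.13, interval -0.09 to 0.52, adjusted p = 0.393), and the interval reached from -5.87% to 43.1%. Without Haspin-KO replicate 1, the log2 fold change of Mga was 0.36 and its adjusted p 0.013, while without WT replicate 2 it was 0.44 (adjusted p = 0.139), without Haspin-KO replicate 2 it was 0.06 and without WT replicate 1 it was 0.02, so the value depended on which library was used. Pcgf6 (chr19:47033617-47050906, minus strand), the subunit that defines the complex, had 14.5 and 14.7 FPKM in WT and 16.8 and 15.3 FPKM in Haspin-KO, with both Haspin-KO libraries above WT. Its log2 fold change was 0.13 (SE 0.083, interval -0.05 to 0.32, adjusted p = 0.383). L3mbtl2 (chr15:81663889-81688315, plus strand), a reader of histone tails in the complex, had 27.0 and 30.7 FPKM in WT and 24.6 and 28.9 FPKM in Haspin-KO. The groups overlapped, and its log2 fold change was -0.11 (SE 0.10, interval -0.34 to 0.12, adjusted p = 0.564). It was 0.01 without Haspin-KO replicate 1 and -0.01 without WT replicate 2, but -0.26 without Haspin-KO replicate 2 (adjusted p = 0.192) and -0.21 without WT replicate 1 (adjusted p = 0.516). L3mbtl2 shares 17.2% of its exonic length with Chadl on the opposite strand, which had at most 57 counts in a library against at least 2074 for L3mbtl2.

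**Figure D3:**
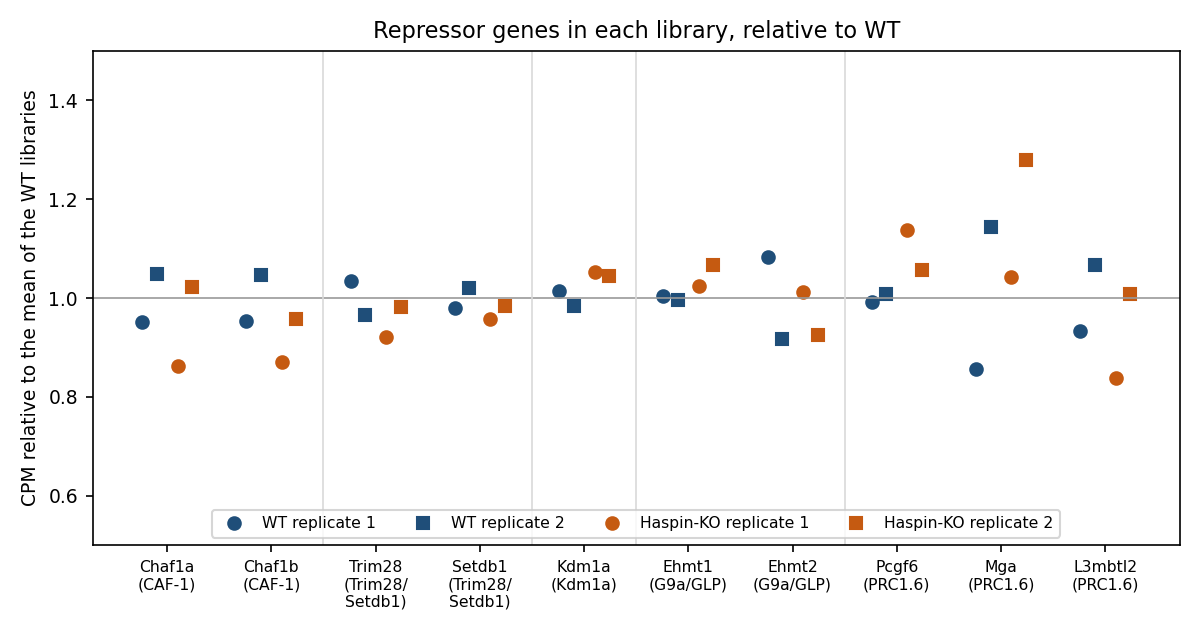
CPM of each repressor gene in each of the 4 libraries, divided by the mean of the WT libraries (vertical axis from 0.5 to 1.5), with blue for WT, orange for Haspin-KO, circles for replicate 1 and squares for replicate 2. The colours mix in most columns, Mga spreads most widely, and the Haspin-KO points lie above the WT points in Kdm1a, Ehmt1 and Pcgf6.

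Per length, the order of the 10 genes by their mean over the 4 libraries was Trim28 at 439.0 FPKM, Kdm1a at 54.4, Setdb1 at 44.8, L3mbtl2 at 27.8, Mga at 27.4, Ehmt2 at 25.4, Chaf1b at 18.1, Pcgf6 at 15.3, Ehmt1 at 13.4 and Chaf1a at 13.3. The ranges over the 4 libraries overlapped between L3mbtl2 and Mga, between Mga and Ehmt2, between Chaf1b and Pcgf6 and between Ehmt1 and Chaf1a, and those neighbours cannot be ordered. The other neighbours did not overlap. FPKM divides by the whole exonic length, which exceeded the longest transcript unevenly, at 5027 against 2832 bases in Pcgf6 and 15340 against 13931 in Mga. The order therefore depends on the length used. All 10 genes were well above the median of 4.86 FPKM over all genes tested. Chaf1a, whose level is uncertain, exceeded 72.9% of them. The 10 genes lie on 8 chromosomes, whose median log2 fold change over the genes tested ran from -0.08 on chromosome 7, with Trim28, to 0.11 on chromosome 16, with Chaf1b. The change of Chaf1b was opposite in sign to the median of its chromosome.

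The other genes of these complexes, and further genes known to restrain the 2-cell state, were fixed as lists of 31 and 7 genes, and all 38 could be tested. In edgeR, 0 of 38 passed an adjusted p of 0.05, against 2.50% of all genes. DESeq2 called 1, Atrx, and limma called 0. Without the filter on low counts, edgeR also called Atrx alone. With a library left out, which of the 38 genes were called depended on the library. At an unadjusted p under 0.05, 8 were higher and 2 lower, or 21.1% and 5.26% of the list, where 10.4% of all genes tested were higher and 10.4% lower. By sign alone, 30 of 38 were above zero, against 49.4% of all genes tested, with a median log2 fold change of 0.05 among the 31 partners and 0.12 among the 7 further repressors. Of the genes higher at the unadjusted p, Atrx and Rif1 have 21757 and 10504 exonic bases and Zfp809 has 2960. The lower ones, Hdac1 and Ring1, have 3445 and 3243. The part of exonic length in these directions was not tested.

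The other CAF-1 gene listed, the histone chaperone gene Rbbp4, had a log2 fold change of 0.03 (SE 0.068, adjusted p = 0.851). Among the genes that act with Trim28 and Setdb1, Atrx, a chromatin remodeller of heterochromatin, had the largest difference. Atrx had 19.4 and 21.7 FPKM in WT and 26.2 and 24.8 FPKM in Haspin-KO, with both Haspin-KO libraries higher, and a log2 fold change of 0.31 (SE 0.077, adjusted p = 0.0702). Among the genes that act with Kdm1a, the deacetylase gene Hdac1 had 38.8 and 39.5 FPKM in WT and 32.4 and 34.3 FPKM in Haspin-KO, a log2 fold change of -0.23 (SE 0.078, adjusted p = 0.135). Of the G9a/GLP partners, the zinc finger gene Zfp644 stood at 0.19 on the log2 scale (SE 0.11, adjusted p = 0.363). In PRC1.6, the ubiquitin ligase gene Ring1 had 3.14 and 3.71 FPKM in WT and 2.37 and 2.63 FPKM in Haspin-KO, a log2 fold change of -0.45 (SE 0.17, adjusted p = 0.178), on 109 to 222 counts. The partner of Mga, Max, and the E2F subunit E2f6 were at -0.03 and -0.0031 (adjusted p = 0.891 and 0.994). Among the further repressors, Rif1, a replication timing factor, had the largest difference, 0.28 (SE 0.10, adjusted p = 0.178).

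The Zscan4 and Xlr genes were set beside the repressors since they were higher in these data. Their larger changes are therefore not independent evidence. All 6 Zscan4 genes were above zero, and 5 passed an adjusted p of 0.05 upwards in edgeR, where 0.988% of all genes tested did. The sixth, Zscan4b, had a log2 fold change of 1.11 (adjusted p = 0.0535), with both Haspin-KO libraries above both WT libraries. Zscan4d had 7.96 and 7.41 FPKM in WT and 22.3 and 18.2 FPKM in Haspin-KO, a 2.62-fold rise (interval 2.17 to 3.16, adjusted p = 0.000675), Zscan4c rose 2.35-fold and Zscan4a 2.06-fold. All 9 Xlr3, Xlr4 and Xlr5 genes were above zero and 8 passed the same test. The other, Xlr5c, stood at 0.63 on the log2 scale (adjusted p = 0.188), also with both Haspin-KO libraries above both WT libraries. Xlr3c had 14.1 and 14.9 FPKM in WT and 40.2 and 36.3 FPKM in Haspin-KO, a 2.63-fold rise (interval 2.26 to 3.06, adjusted p = 0.000165), Xlr5a rose 2.68-fold and Xlr3a 2.29-fold. These families are near-identical copies between which reads could have been split. The range of the repressors' log2 fold changes, -0.13 to 0.21, did not reach that of either family, 1.04 to 1.39 for Zscan4 and 0.63 to 1.42 for Xlr.

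**Figure D4:**
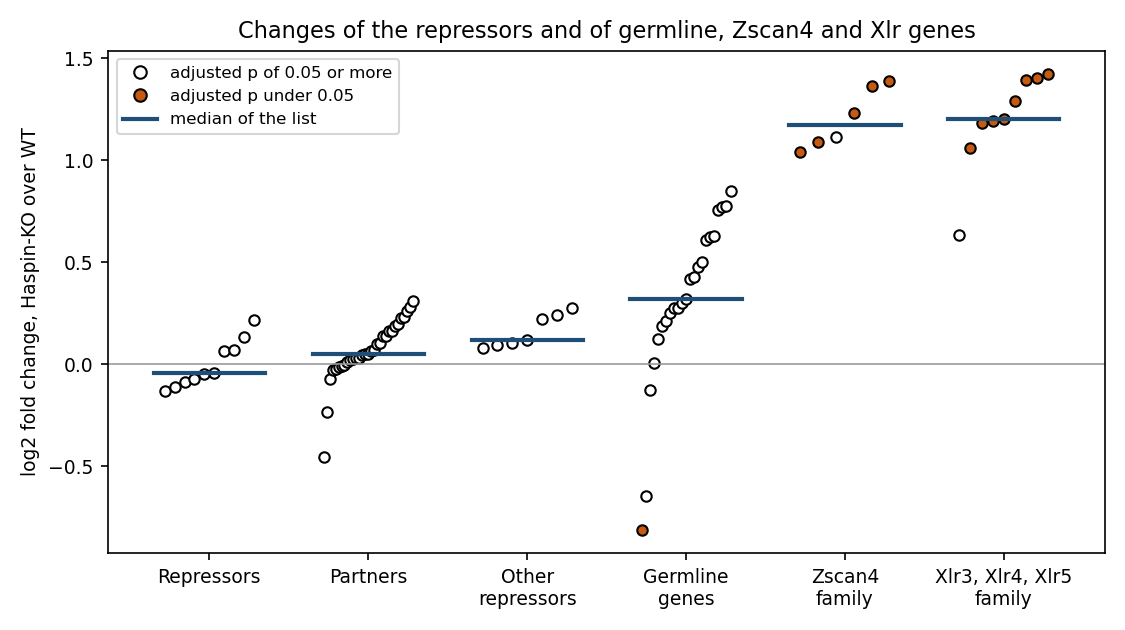
Log2 fold change in Haspin-KO over WT (vertical axis) for each tested gene of the 6 lists, in rising order within a list, with filled orange points for an adjusted p under 0.05 and a blue line at each list's median. The medians were -0.04 for the 10 repressors, 0.05 for the partners, 0.12 for the further repressors, 0.32 for the germline genes, 1.17 for Zscan4 and 1.20 for Xlr.

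The germline list, chosen as targets of PRC1.6, had a median between those of the repressors and of the Zscan4 and Xlr families. Of its 24 genes, 23 could be tested, 0 passed the test upwards (0.988% of all genes tested) and 1 downwards (1.51%), Rhox5, an X-linked homeobox gene, at 69.9 and 47.0 FPKM in WT and 36.0 and 30.9 FPKM in Haspin-KO (log2 fold change -0.81, SE 0.17, adjusted p = 0.0412). At an unadjusted p under 0.05, 26.1% of the list were higher and 8.70% lower in edgeR, against 10.4% and 10.4% of all genes tested. DESeq2 also called 0 upwards among the genes to which it gave an adjusted p. By sign, 20 of 23 were above zero, or 87.0% against 49.4% of all genes, with a median log2 fold change of 0.32. Some of these signs rest on few reads, as in Tex101 with 6 to 17 counts a library and Tdrd1 with 5 to 23. Ddx4, the germ cell RNA helicase gene whose E-box is shown above, had 3.59 and 4.16 FPKM in WT and 5.95 and 5.88 FPKM in Haspin-KO, a log2 fold change of 0.61 (SE 0.14, adjusted p = 0.0553). Sycp1, of the synaptonemal complex, had 2.36 and 3.03 FPKM in WT and 4.02 and 4.30 FPKM in Haspin-KO, a log2 fold change of 0.63 (SE 0.17, adjusted p = 0.0814). Of the 13 genes with an E-box in the promoter, 12 were above zero with a median of 0.415. Of the 9 tested genes with a promoter but no E-box, 7 were above zero with a median of 0.25. The difference between these groups of genes was not tested, and both hold genes with few counts, Tdrd1 with an E-box and Tex101 without.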

How the data were processed

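The authors trimmed reads with cutadapt 1.9.1 and mapped them to mm10 with HISAT2 2.0.1, and the submitters' processing notes also name HTSeq 0.6.1. The authors deposited raw counts per gene, and FPKM values computed from those counts, the exonic length and the library total. Strand setting and annotation release are not given in the sources used here. Of the table's genes, 55141 are in GENCODE release M21 (GRCm38), 99.4% with the same coordinates.

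Counts were tested with edgeR (4.0.16, R 4.3.3) after its filter on low counts and TMM normalization, Haspin-KO against WT without a block. Standard errors were the log2 fold change over the square root of F, and intervals (95%) used the t distribution with edgeR's 2 residual and 7.42 prior degrees of freedom. Genes were called at an adjusted p under 0.05. DESeq2 (1.42.0), limma (3.58.1) on log2(FPKM + 0.1) or log2(FPKM + 1) for genes with at least 0.5 FPKM in 2 libraries, other scalings and filters, the replicate block and each library left out were alternatives. The fit without fibroblast and collagen genes was chosen after seeing the data. CPM were computed from the counts and the TMM-scaled library totals. Library totals are given above, and the precision is that of 2 libraries a group.

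The repressors and all gene lists were chosen with earlier results of these data known. Named were the 10 repressors, per complex the partner with the largest absolute log2 fold change, per target family the 3 with the smallest adjusted p, and Haspin. Max, E2f6, Zfp809, Zscan4b, Xlr5c, Mael, Taf7l, Stra8, Tdrd1 and Tex101 were named after their values were seen. Exon overlaps were taken from GENCODE. Protein sequences were not used here.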

Additional observations from a re-analysis of the deposited data

How the results depend on the processing

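Of the 10 repressors, Chaf1b, Trim28, Setdb1, Kdm1a, Ehmt1 and Pcgf6 kept their direction and stayed uncalled under all 13 alternatives. Leaving out each library in turn gave log2 fold changes of -0.22 to 0.03 for Chaf1a, -0.16 to 0.08 for Ehmt2, -0.26 to 0.01 for L3mbtl2 and 0.02 to 0.44 for Mga. Ehmt2 was at 0.01 without Haspin-KO replicate 2. Mga was called without Haspin-KO replicate 1, at 0.36 with an adjusted p of 0.013, over a range of 0.00275 to 0.975 for its alternatives. The cause was not tested. Leaving out a library gave 0 to 1 repressors and 0 to 2 of the 38 other genes called higher, and over all genes 33 to 446 called higher and 61 to 432 lower (154 and 236 with all libraries). With a fold change over 2 as well, these were 17 to 157 and 37 to 150 (51 and 78 with all libraries). A lone library was then assumed to vary like the other group.

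Replicates share only a number. The difference between replicates 1 and 2 correlated across 15580 genes between WT and Haspin-KO with r = 0.289, which is across genes and not independent. With the replicate block, 1 residual degree of freedom was left, Mga was called higher (0.22, adjusted p = 0.00275), as were 11 of the 38 others, and 2 were lower. Over all genes, 1775 were called higher and 1739 lower, or 240 and 167 with a fold change over 2.

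Without the filter, 324 genes were called higher and 547 lower, or 107 and 123 with a fold change over 2, and of the 38 others 1 was called higher, Atrx, as in DESeq2, which also called 1. With a fold change over 2, 45 genes were lower in DESeq2 and 36 with at least 10 counts in every library. On log2(FPKM + 0.1), limma called 21 higher and 21 lower, with or without the fold change, and on log2(FPKM + 1) it called 0 and 0, with 2337 and 2531 genes at an unadjusted p under 0.05 on the 2 scales. All 10 repressors had at least 1107 counts in each library, and 2 libraries a group limit the precision.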
